A study of Mus musculus with 2 samples.

Results

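The mitochondrial ribosome, built in the cell from nuclear-encoded proteins and RNAs of the mitochondrial genome, is described here through the promoters of its protein genes. The members were all GENCODE M21 protein-coding genes on chromosomes 1 to 19 whose symbol starts with Mrpl or Mrps followed by a number. There were 78 members of 20807 protein-coding genes on these chromosomes, 49 of the large subunit (Mrpl) and 29 of the small subunit (Mrps) by symbol. DNase-seq had been carried out on frontal cortex of female F1 mice of the B6 by CAST cross (strain B6CASTF1/J) aged 36 days. The labels give 1 group of 2 libraries, biological replicates 1 and 2, with no genotype, treatment or age that differs between them. Separate tissue records but the same donor label stand on both, so the spread between them may be technical.

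Mitochondria translate a small set of respiratory chain subunits on their own ribosomes, and every protein of those ribosomes is made in the cytosol and imported. The genes are needed in nearly all cells, and neurons depend heavily on the respiratory chain. Their promoters are known as CpG-rich promoters without a TATA box, often shared head to head with another gene. The factors usually named for nuclear genes of mitochondrial function are NRF1 and ETS factors such as GABPA, with YY1 and ERR as further candidates. In DNase-seq, DNase I cleaves exposed DNA. A peak is a stretch of many cleavages, and a footprint is a short stretch within it that was cleaved less than its surroundings, as happens under a bound protein.

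Some sequences that recur in these promoters are shown first, as examples of motif matches that lay under footprints. Most footprints of the members lay elsewhere. A motif means here an exact run of letters on either strand, and a match is a description of the sequence, not a shown binding site. For NRF1 (GCGCANGCG) and ETS (CCGGAAG), each stretch holds a match under a footprint of both libraries and comes from the 2 members of highest signal whose stretch lay outside annotated exons. For YY1 (AAGATGGCG) the footprinted matches lay in first exons, so the stretches of the 2 members of highest signal were kept to 30 bases. All are from GRCm38 (mm10), 5′ to 3′ on the strand of the gene, with the match in capitals. The reference is that of the B6 strain, and the CAST copy was not analysed here.
Mrpl17, NRF1, chr7:105811106-105811158, minus strand: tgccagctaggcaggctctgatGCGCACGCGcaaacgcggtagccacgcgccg
Mrpl45, NRF1, chr11:97315656-97315708, plus strand: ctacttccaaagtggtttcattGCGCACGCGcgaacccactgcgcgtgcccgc
Mrpl34, ETS, chr8:71464867-71464917, plus strand: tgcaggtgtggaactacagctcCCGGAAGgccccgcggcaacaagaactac
Mrpl43, ETS, chr19:45006470-45006520, minus strand: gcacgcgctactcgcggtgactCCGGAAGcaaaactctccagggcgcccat
Mrpl37, YY1, chr4:107066822-107066851, minus strand: ctgcacgggcaAAGATGGCGgcgtccaggt
Mrpl35, YY1, chr6:71823743-71823772, minus strand: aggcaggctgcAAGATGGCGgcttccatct

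The middle of the match lay 33 bp before the gene's 5′ end in Mrpl17 (position -33) and at position -34 in Mrpl45. In Mrpl34 and Mrpl43 the ETS match lay at positions -67 and -53. In Mrpl37 the YY1 match lay 32 bp after the 5′ end. In Mrpl35 it lay 3212 bp inside the annotated gene, at a downstream TSS. Over the Mrpl17 match the footprint was 19 bp wide in replicate 1 and 17 bp in replicate 2, and over the shown Mrpl45 match 18 and 20 bp. The footprints over the ETS matches were 11 and 16 bp wide in Mrpl34 and 11 and 23 bp in Mrpl43. Replicate 1 gave the narrower interval in both ETS examples.

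The other sequences that matter for these genes are the gaps between divergent genes. In such a pair the 5′ ends of genes on opposite strands face away from each other, so that 1 short stretch can serve as promoter of both. Whether a given gap does so was not tested. The gaps of the 5 closest pairs, and that of Mrps27 and Ptcd2, whose signal was among the 5 highest, are given whole. They hold the bases between the annotated 5′ ends in GRCm38, on the strand of the member. Any motif match that lies wholly inside the gap is in capitals.
Mrpl54 and Apba3, chr10:81266935-81266959, minus strand: acctccaaagccgatctggagggct
Mrps18c and Helq, chr5:100798599-100798626, plus strand: gtgaCTTCCGGcccgggaagcgcgggaa
Mrps34 and Eme2, chr17:24895088-24895115, plus strand: gcttttgttcaggacaccggccgcttcc
Mrps18b and Ppp1r10, chr17:35916390-35916433, minus strand: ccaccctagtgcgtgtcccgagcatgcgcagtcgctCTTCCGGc
Mrpl57 and Ska3, chr14:57826186-57826233, plus strand: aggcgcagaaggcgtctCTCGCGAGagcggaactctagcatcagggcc
Mrps27 and Ptcd2, chr13:99344706-99344785, plus strand: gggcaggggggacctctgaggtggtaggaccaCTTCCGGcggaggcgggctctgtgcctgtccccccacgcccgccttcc

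The capitals mark ETS matches on the reverse strand in the gaps of Mrps18c, Mrps18b and Mrps27, and the BANP consensus in that of Mrpl57. No motif match lay wholly within the gaps of Mrpl54 and Mrps34. Matches that cross the edge of a gap are not in capitals. These were an ETS match of Mrps34 (position -2), an E-box CACGTG of Mrps18c (-28) and an NRF1 match of Mrpl57 (-48). Each of them lay under a footprint of both libraries. The gap of Mrpl54 held no footprint in either library. The gap of Mrps27 held 2 footprints in replicate 1 and 3 in replicate 2, and that of Mrpl57 held 2 in each. The middle of the BANP match in the Mrpl57 gap lay in no footprint of either library. Among the printed gaps GC content ran from 60% in that of Mrpl54 to 73.8% in that of Mrps27. Among the other gaps of at most 100 bp it ran from 41.9% in Mrpl32 to 70.7% in Mrpl49.

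All 78 members had a promoter peak in both libraries, meaning a peak of the authors' shorter list that overlapped the 500 bp to either side of an annotated TSS. Of all protein-coding genes 52.2% had one in replicate 1, 61.2% in replicate 2 and 52.0% in both. All 78 members also had a footprint in that window in both libraries, against 56.3% of all genes. The background differed with base composition. With a promoter (250 bp before to 50 bp after the 5′ end) called CpG-rich at a GC content of at least 50% and a CpG ratio (observed over expected CpG) of at least 0.6, 56 members (71.8%) were CpG-rich, against 42.5% of all genes. Of the CpG-rich genes 83.2% had a promoter peak in both libraries, and of the other genes 28.9%. The 22 members whose 5′ end was not CpG-rich had a peak in both libraries as well. The class was scored at the 5′ end, whereas the peak could lie at any TSS, in members and background alike. In Mrpl33 and Mrpl35, not CpG-rich, the middle of the highest replicate 2 peak lay 17116 and 3218 bp after the 5′ end. CpG content was not scored at the peaks.

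Members have a median of 4 annotated TSSs and all genes 3, which gives them slightly more windows. With the 5′ end of the gene as the only window, 72 members had a peak in both libraries, against 46.8% of all genes. Mrpl20, Mrpl35, Mrpl47 and Mrps24 then had none in either library, and Mrpl1 and Mrpl33 had none in replicate 1. In Mrpl1, Mrpl20, Mrpl33, Mrpl35 and Mrps24 the highest peak covered a TSS downstream of the annotated 5′ end, and in Mrpl47 it lay just beyond the window, over the TSS of the neighbour Ndufb5. Mrps24 (small subunit, chromosome 11), for example, has its 5′ end at position 5715680 on the minus strand, and its highest peak ran from 5707601 to 5707800 in replicate 2. Mrpl33 has its 5′ end at 31596935 on the plus strand of chromosome 5 and its highest replicate 2 peak at 31613861 to 31614240. Around the 5′ ends of Mrps24 and Mrpl35 no base was listed at a cleavage FDR of 0.001 or less in either library, and around that of Mrpl20 at most 4 of 1001 bp were. Around that of Mrpl33 none was in replicate 1 and 433 bp were in replicate 2, and around that of Mrpl47 331 and 547 bp were.

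The tissue label was checked on marker genes. The neuronal genes Tbr1, Cux1, Camk2a, Snap25 and Syn1 each had at least 1 promoter peak in both libraries. Myod1, Hoxa9 and Cd3e, of muscle, posterior body and T cells, had 0, and the liver gene Alb had 0 in replicate 1 and 1 in replicate 2. Replicate 1 had 29700 peaks and 112826 footprints, and replicate 2 had 66512 and 250543. The peak signal, a density the authors normalized for read depth, moved in steps of 0.01178 in replicate 1 and 0.009709 in replicate 2. If a step is 1 tag, the members' highest peaks held 96 to 551 tags in replicate 1 and 174 to 1273 in replicate 2. The 95% exact Poisson intervals given below rest on that reading and cover counting error only.

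Openness was universal among the members, but the height of the peaks was ordinary. Where a gene had several promoter peaks, the one with the highest signal was used. The members' median signal was 2.43 in replicate 1 (range 1.13 to 6.49) and 4.31 in replicate 2 (1.69 to 12.4). The medians of all 10816 genes with a promoter peak in both libraries, called open genes below, were 2.30 and 4.07. In replicate 1, 43 members lay at or above the median of the open genes, and in replicate 2, 42. The median member stood at percentile 54.2 and 54.7 of the open genes. At or above percentile 90 lay 14 members in replicate 1 and 8 in replicate 2.

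**Figure D1:**
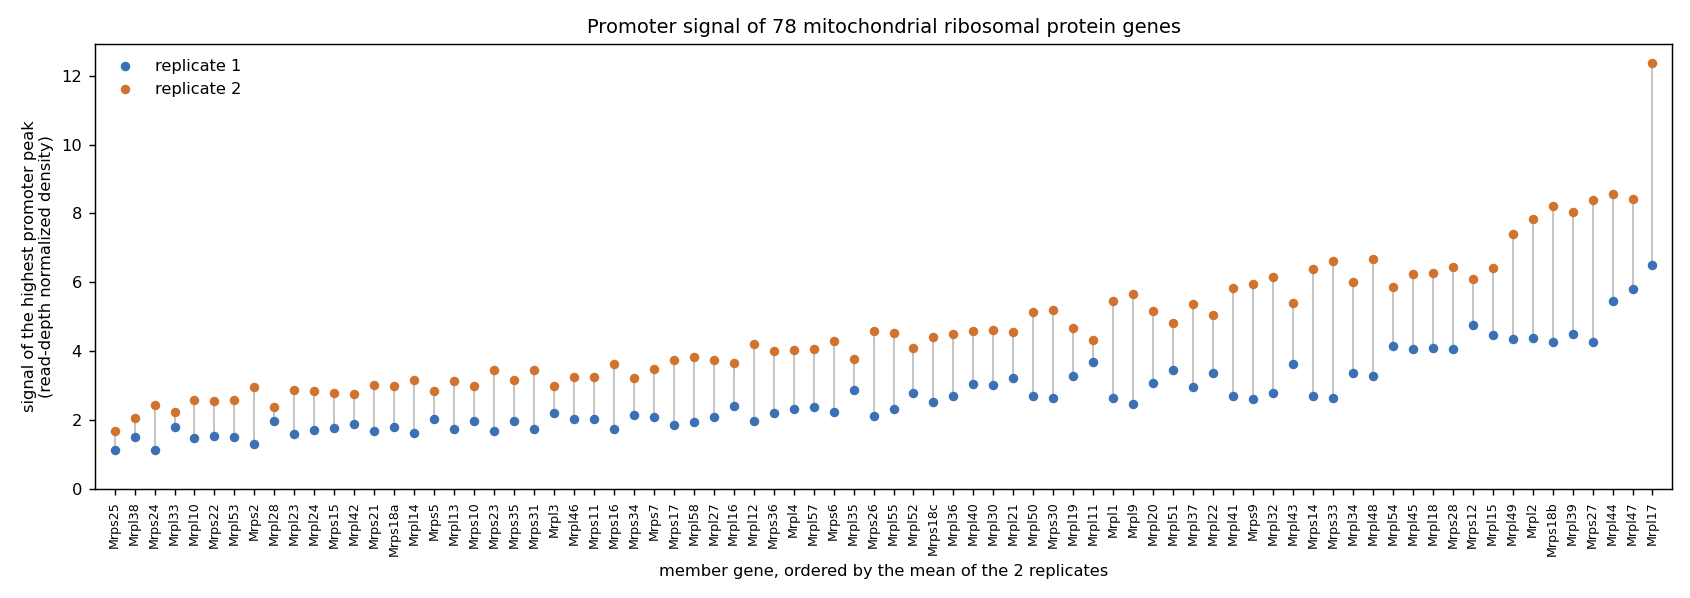
Signal of the highest promoter peak (vertical axis, read-depth normalized density) of each of the 78 members, in order of the mean of the replicates, with blue points for replicate 1, orange points for replicate 2 and a grey line joining them. The orange point lies above the blue one in all 78 genes, and Mrpl17 at the right stands apart at 12.4 in replicate 2.

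**Figure D2:**
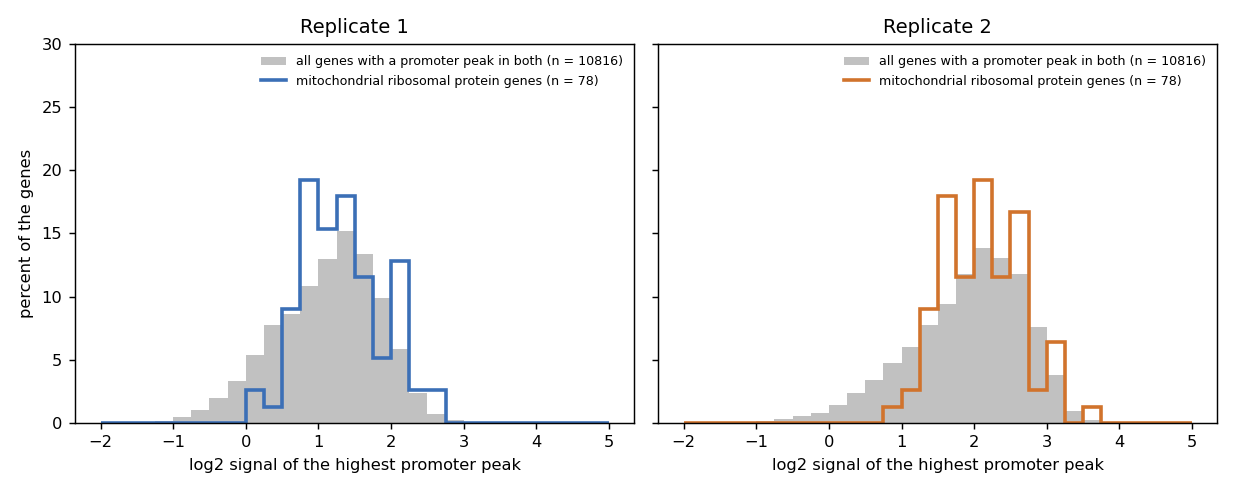
Distribution of the log2 signal of the highest promoter peak (horizontal axis) as percent of genes (vertical axis) for the 78 members (outline) and all 10816 open genes (grey), per replicate. The outlines lie over the grey distributions, without the tail of low signal that the open genes have.

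Replicate 2 gave the higher signal for all 78 members, as for 99.1% of all open genes. The median ratio of replicate 2 to replicate 1 was 1.70-fold (0.77 on the log2 scale, range 0.22 to 1.33), and that of all open genes was 0.79 on the log2 scale. The members' ratio thus lay near that of the open genes. In 74 members the counting interval of replicate 2 lay wholly above that of replicate 1. The exceptions were Mrpl11, Mrpl28, Mrpl33 and Mrpl38. The same count was not made for the open genes. Across the 78 members the log2 signals of the libraries had a Pearson r of 0.903 and a Spearman rho of 0.901. This is a correlation across genes, which are not independent replicates.

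The 5 members of highest mean signal were by symbol all but 1 of the large subunit, to which 49 of the 78 members belong. Mrpl17, the counterpart of a bacterial large subunit protein, measured 6.49 in replicate 1 (95% interval 5.96 to 7.06) and 12.4 in replicate 2 (11.7 to 13.1). The mean over the libraries was 9.43 ± 4.15 (SD, n = 2). It stood at percentile 99.6 and 99.9 of the open genes. Mrpl47 measured 5.82 and 8.42. Mrpl44, which carries an RNase III-like domain, measured 5.46 and 8.56. These 3 were the highest members in both libraries.

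Mrps27, a pentatricopeptide repeat protein of the small subunit, measured 4.25 and 8.39, and Mrpl39 measured 4.50 and 8.03. The peaks of Mrpl47, Mrpl44 and Mrps27 were shared with a neighbour, since the TSS of Ndufb5, Wdfy1 and Ptcd2 respectively lay inside the same peak in both libraries. Their signal cannot be divided between the genes. The peaks of Mrpl17 and Mrpl39 held no TSS of another protein-coding gene.

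At the low end, Mrps25 measured 1.14 in replicate 1 and 1.69 in replicate 2, at percentiles 10.7 and 8.92 of the open genes. Its mean was 1.42 ± 0.387 (SD, n = 2). Mrpl38 measured 1.51 and 2.05, Mrps24 1.13 and 2.43, Mrpl33 1.79 and 2.22, and Mrpl10, a protein of the stalk base, 1.48 and 2.57. Within each library these 5 lay below the median of the members. The lowest replicate 2 value of the 5 highest members was 8.03, in Mrpl39, and the highest of the 5 lowest was 2.57, in Mrpl10. Both sets of 5 were picked by the mean of these same values, so their separation is no independent check of the ranking. The members' signals spanned 5.74-fold in replicate 1 and 7.32-fold in replicate 2, among genes named for proteins of 1 particle.

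The ratio between the libraries varied less than the signal. It was largest in Mrps33 (2.63 in replicate 1 and 6.61 in replicate 2, 1.33 on the log2 scale), Mrps14 (2.70 and 6.38, 1.24) and Mrpl9 (2.46 and 5.65, 1.20). It was smallest in Mrpl11 (3.70 and 4.32, 0.22), Mrpl28 (1.97 and 2.39, 0.28) and Mrpl33 (0.31). In Mrpl11, the counterpart of a bacterial protein near the GTPase centre, the counting intervals of 3.30 to 4.13 and 3.93 to 4.74 overlapped. Each ratio rests on 1 library against 1 and has no replicate check.

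By symbol, the Mrpl genes had the higher median signal in both libraries. The place of each protein in the ribosome was not checked. The 49 Mrpl genes had medians of 2.78 in replicate 1 and 4.57 in replicate 2, and the 29 Mrps genes 2.04 and 3.48. The ranges overlapped, from 1.48 to 6.49 and from 1.13 to 4.77 in replicate 1. At or above the median of the open genes lay 34 Mrpl and 9 Mrps genes in replicate 1 and 31 and 11 in replicate 2. The difference was not tested, since genes are not replicates. The 46 members listed with a bacterial counterpart had medians of 2.37 and 4.13, and the 32 not so listed 2.63 and 4.57. Absence from the list does not show that a protein has no counterpart.

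Among related gene groups the openness was similar and the signal differed. Of the cytosolic ribosomal protein genes (81 by symbol, paralogs included), 77 had a promoter peak in both libraries, with median signals of 3.23 and 5.53. Of 82 respiratory chain genes 72 did, with medians of 2.998 and 4.87. The members' medians lay below both groups in both libraries, although more of them were open. The difference in signal was not tested.

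The partners of the mitochondrial ribosome were open as well. All 19 genes of its assembly and rRNA modification had a promoter peak in both libraries, with signals from 1.18 to 4.97 in replicate 1. The highest was the GTPase gene Noa1, at 4.97 and 8.69. All 16 genes of translation factors and messenger RNA handling did too, among them Tufm, the elongation factor Tu of mitochondria, at 3.03 and 6.89. So did all 20 aminoacyl-tRNA synthetase genes, with medians of 2.85 and 4.73. Of 5 further subunit genes with other symbols, 4 did and Gadd45gip1 had no promoter peak in either library. Of 18 genes of mitochondrial transcription, replication and their nuclear regulators, 16 did. Ppargc1a, a coactivator of mitochondrial biogenesis, had a promoter peak in replicate 2 only, at 0.738, and Mterf1b had none.

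In width the highest promoter peaks of the members were like those of the open genes. The highest peak had a median width of 260 bp in replicate 1 and 240 bp in replicate 2, against 260 bp in both for the open genes. Exactly 1 peak in the promoter windows was found for 61 members (78.2%) in replicate 1 and 59 (75.6%) in replicate 2, against 64.4% and 54.0% of the open genes. The highest peak covered a TSS of the gene itself in 73 members in replicate 1 and 71 in replicate 2. This count and the next were not made for the open genes. In 77 members the highest peaks of the libraries overlapped.

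The exception was Mrpl48, which has 10 annotated TSSs and had 7 promoter peaks in replicate 1 and 6 in replicate 2. Its highest peak in replicate 1 (3.29) ran from 100583001 to 100583180 on chromosome 7, at an internal TSS. In replicate 2 it ran from 100607501 to 100607800 (6.68) and held a TSS of Rab6a, a GTPase gene of vesicle traffic on the other strand. The values of Mrpl48 in the 2 libraries therefore describe different places. In Mrpl37, Mrpl47 and Mrps12 the highest peak covered no TSS of the gene itself in either library.

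A divergent protein-coding gene with its 5′ end at most 1 kb away was found for 18 members (23.1%), against 6.97% of all protein-coding genes and 12.3% of the open genes. By symbol these were 12 of 49 Mrpl and 6 of 29 Mrps genes. The gap was at most 100 bp in 11 members. From the closest, the partners were Apba3 for Mrpl54 (26 bp between the 5′ ends), the helicase gene Helq for Mrps18c (29 bp), the endonuclease subunit gene Eme2 for Mrps34 (29 bp) and the phosphatase regulator gene Ppp1r10 for Mrps18b (45 bp). Next came the kinetochore gene Ska3 for Mrpl57 (49 bp), Fau, which encodes a cytosolic ribosomal protein, for Mrpl49 (59 bp), and Mitd1 for Mrpl30 (66 bp). The remaining close pairs were Mrpl32 with the proteasome gene Psma2 (75 bp), Mrps27 with Ptcd2 (81 bp), Mrpl50 with Zfp189 (83 bp) and Mrpl51 with the condensin gene Ncapd2 (100 bp). The widest gap was that of Mrpl41 and Pnpla7, 935 bp.

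Many further members face a neighbour whose annotated 5′ end overlaps their own. Counting opposite-strand 5′ ends up to 1 kb apart or overlapping by up to 1 kb, 33 members (42.3%) had such a neighbour, against 11.2% of all genes and 19.3% of the open genes. The definition was added after the data were seen. It brought in 15 members, among them Mrpl46 and Mrps11, a large and a small subunit gene whose 5′ ends overlap by 412 bp on chromosome 7. These share their highest peak, with signals of 2.04 and 3.26, and are the only members within 1 kb of each other. It also brought in Mrpl43 with Twnk, the gene of the mitochondrial DNA helicase, and Mrpl36 and Mrpl47 with the complex I genes Ndufs6 and Ndufb5. The divergent pairs include Mrps12 with Sars2, the mitochondrial seryl-tRNA synthetase gene, and Mrps27 with Ptcd2. The highest peak of Mrps12 covered no TSS of Mrps12 in either library and held one of Sars2 in replicate 2 only. By annotation, some members thus face another gene of mitochondrial function within 1 kb. How often this happens among all genes was not counted.

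The 18 members with a divergent gene had median signals of 2.998 in replicate 1 and 5.25 in replicate 2, and the other 60 had 2.20 and 3.93. The same order held among all open genes, with 2.89 and 5.16 for those with a divergent gene and 2.22 and 3.90 for the rest. The members' order is therefore that of the background. Of the 18, 12 in replicate 1 and 13 in replicate 2 had a highest peak that held a TSS of the partner. The same share among all genes with a divergent gene was not counted. Mrpl54, with the closest partner, measured 4.15 and 5.86, and Mrps34, with a gap of 29 bp, 2.16 and 3.23. Mrps18b measured 4.28 and 8.22 at a gap of 45 bp, and Mrpl10 1.48 and 2.57 at 153 bp.

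**Figure D3:**
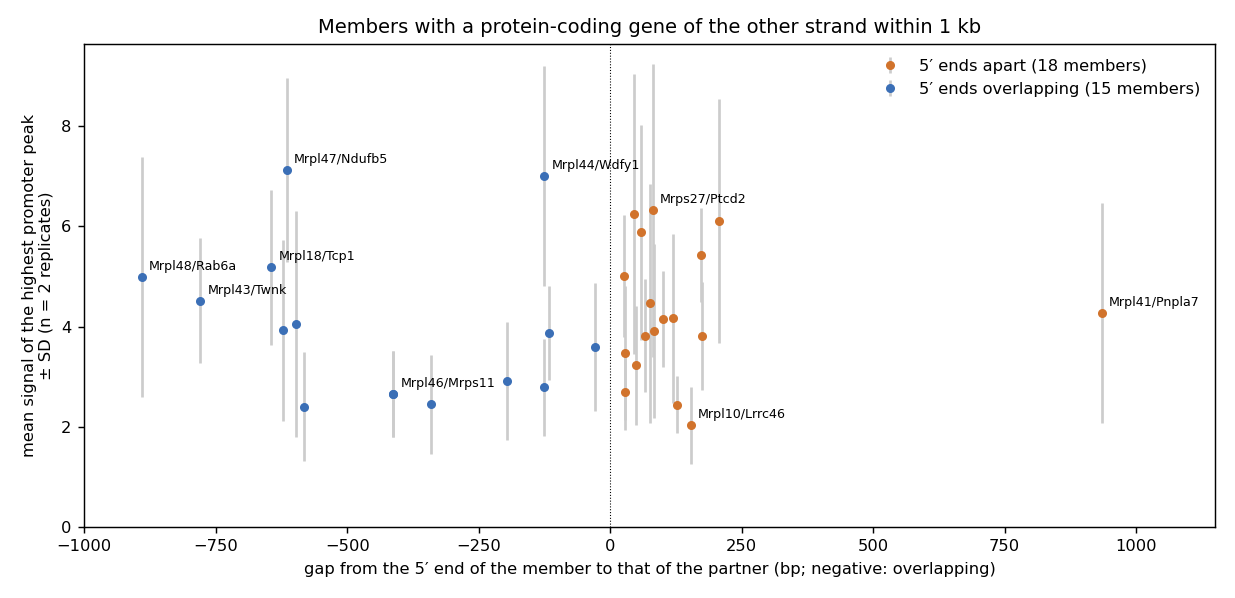
Mean signal of the highest promoter peak ± SD over the 2 replicates (vertical axis) against the gap between the 5′ ends of the member and its neighbour on the other strand (horizontal axis, bp, negative where they overlap), for the 18 members with ends apart (orange) and 15 with ends overlapping (blue). The orange points have means from 2.03 to 6.32, and all but Mrpl41, at 935 bp, lie close to 0.

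By length, footprints were slightly denser in the members' peaks than in those of the open genes. A promoter peak held a mean of 4.03 footprints in replicate 1 and 4.80 in replicate 2, against 3.54 and 4.33 for the open genes. Per 100 bp of the highest peak these were 1.54 and 1.95, against 1.40 and 1.74. Cytosolic ribosomal protein genes had 1.60 and 1.91 per 100 bp, and respiratory chain genes 1.52 and 2.02. As a plain count, the highest peak held a mean of 4.49 and 5.333 footprints in the members, against 4.17 and 5.325 in the open genes. In replicate 2 that count was thus nearly the same. The windows of the members held 437 different footprints in replicate 1 and 546 in replicate 2. Of these, 64.1% of the replicate 1 footprints and 48.5% of those of replicate 2 overlapped a footprint of the other library, against 58.1% and 40.6% for the open genes. These differences were not tested.

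The footprints gathered at the 5′ end. From 50 bp before the 5′ end up to it, the members had 0.897 footprints per gene in replicate 1 and 1.05 in replicate 2, and the open genes 0.663 and 0.819. From 50 to 100 bp after the 5′ end the members had 0.538 and 0.808, against 0.388 and 0.541. Between 100 and 50 bp before it, the order was reversed, with 0.423 and 0.679 for the members and 0.560 and 0.698 for the open genes.

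**Figure D4:**
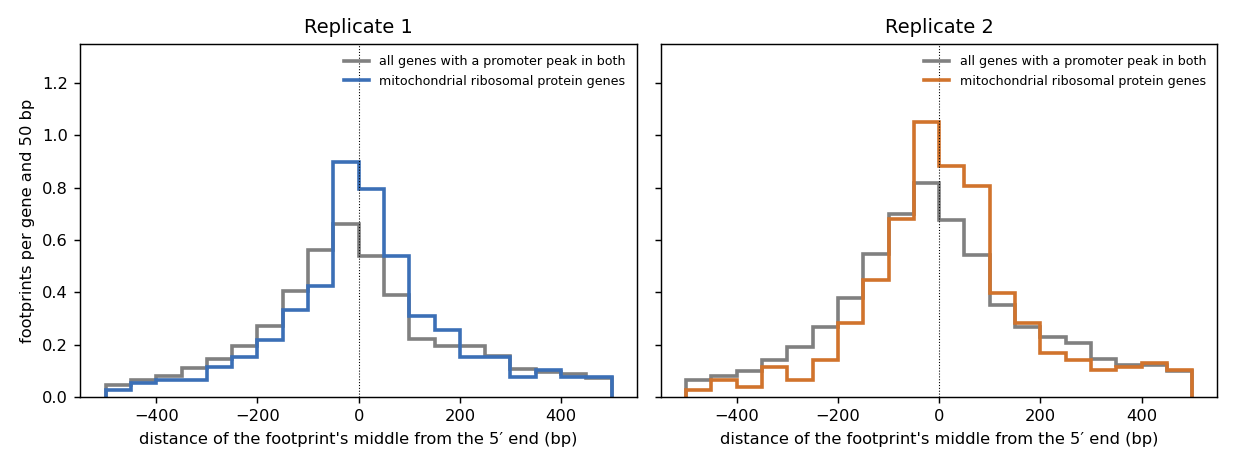
Footprints per gene and 50 bp (vertical axis) by distance of the footprint's middle from the 5′ end (horizontal axis, bp, negative before the gene), for the members (coloured line) and all open genes (grey line), per replicate. The members' line peaks in the 50 bp before the 5′ end, at 0.897 and 1.05, and runs above the grey line there and over the first 100 bp of the gene.

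Mrpl48 had the most footprints over its many windows, 22 in replicate 1 and 29 in replicate 2. Mrpl40 followed with 14 and 12, Mrpl34 with 11 and 12, and Mrps6 with 8 and 13. Mrpl36 (11 and 9), Mrpl45 (8 and 12) and Mrps18b (10 and 10) shared the next place. No member was without a footprint in a library. The fewest were in Mrps18a, with 2 and 1, and in Mrps25, with 2 and 2. The median was 5 in replicate 1 and 7 in replicate 2, as for the open genes.

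The promoter sequences were searched from 250 bp before to 50 bp after the gene's 5′ end. ETS matches were found in 27 members (34.6%), against 11.0% of all promoters and 18.2% of those of open genes. NRF1 matches were found in 15 (19.2%), against 8.17% and 14.3%. YY1 matches were found in 7 (8.97%), against 1.7% and 3.02%. At least 1 of these 3 stood in 40 of the 78 members, and in 18.8% of all genes. ETS and NRF1 matches stood together in 5 of the 78 members, against 1.58% of all genes. For these combinations the share among open genes was not counted. Whether the pair was more common than the single shares would give was not tested. Mrpl17, the member of highest signal, held both, and Mrpl57 held both as well as the BANP consensus.

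The remaining motifs departed from the background in either direction, several of them with few members. SP/KLF matches (GGGCGGG) stood in 35.9% of the members, 32.1% of all promoters and 44.9% of those of open genes. NFY matches (CCAATNA) stood in 21.8%, against 16.5% of all and 18.4% of open promoters, and the cyclic AMP response element CRE (TGACGTCA) in 2.56%, against 2.43% and 3.9%. The E-box CACGTG stood in 6.41%, against 7.82% and 10.5%. ZNF143 (ACTACAA) stood in 6 members (7.69%), against 3.83% and 4.46%, and ERR (CAAGGTCA) in 2 (2.56%), against 1.49% and 1.11%. BANP (CTCGCGAG) stood in 3 members (3.85%), against 1.22% and 2.12%, a ratio to all promoters like that of ETS. TATAAA stood in 6.41% against 12.7% of all and 6.8% of open promoters. None of the 11 motifs was found in 10 members, among them Mrpl11, Mrpl41 and Mrpl47. Some of these 5′ ends lie away from the peak, as described for Mrpl47.

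**Figure D5:**
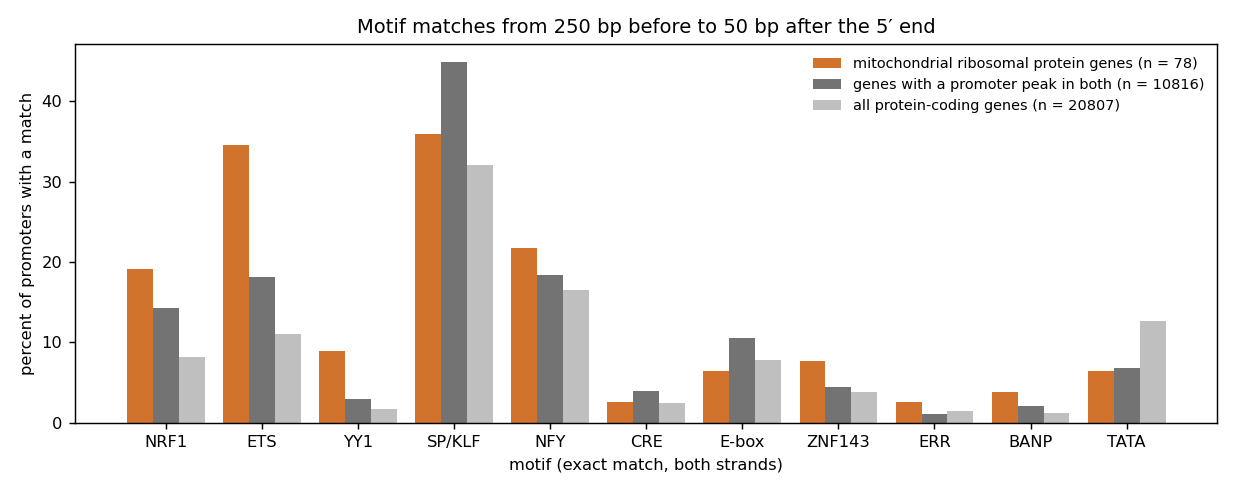
Percent of promoters with at least 1 exact match (vertical axis) for 11 motifs (horizontal axis), in the 78 members (orange), the 10816 open genes (dark grey) and all 20807 protein-coding genes (light grey). The members' bar is the highest of the 3 for NRF1, ETS, YY1, NFY, ZNF143, ERR and BANP, and lies below that of the open genes for SP/KLF, CRE, E-box and TATA.

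Centred on the peak instead, in the 150 bp to either side of the middle of the highest replicate 2 peak, ETS matches stood in 34 members (43.6%) and in 19.2% of all genes with a replicate 2 promoter peak. NRF1 matches stood in 21 members (26.9%) against 16.1%, and YY1 matches in 11 (14.1%) against 3.74%. This window was added after the data were seen.

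NRF1 matches were the ones most often footprinted among the motifs with at least 10 matches in the members' highest replicate 2 peaks. Of 32 NRF1 matches there, overlapping ones counted each, 26 had their middle in a footprint of replicate 1, 27 in one of replicate 2 and 25 (78.1%) in both. Among all open genes the share in both was 66.0%. Of 40 ETS matches 11 lay in a footprint of replicate 1, 23 in one of replicate 2 and 10 (25%) in both, against 15.3% for the open genes. SP/KLF matches were footprinted in both libraries in 17 of 50 cases (34.0% against 29.1%), and NFY matches in 2 of 14. Any base of the members' peaks lay in a footprint of both libraries in 12.8% of cases, against 9.56% for the open genes. Footprinted bases were thus more common in the members' peaks whatever their sequence, and that part in the motif shares was not tested.

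Of the stretches printed above, the Mrpl34 and Mrpl37 matches lay outside the highest replicate 2 peak and are not in these counts. Mrpl45 held 3 NRF1 matches under footprints of both libraries, at positions -116, -34 and 20 from its 5′ end. Mrpl17 held matches at positions -33 and 5. Mrpl54, whose gap to Apba3 held none, had 2 in its first intron, at positions 241 and 325, within the highest peak, which ran from 81266561 to 81266960 in both libraries.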

How the data were processed

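DNase-seq of frontal cortex from female B6CASTF1/J mice was analysed from deposited files: 2 libraries in 1 group, with 2 peak lists, a footprint list and a cleavage table each, on mm10 per the labels. Aligner, callers and their settings were not given in the sources used here. As peak signal the authors deposited a density normalized for read depth. The score column of the deposited footprint list is constant, so footprints have positions but no rank. The p-value column deposited in the cleavage table is an FDR. The list with fewer peaks was the main one.

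Genes and TSSs came from GENCODE M21 and sequence from GRCm38. Peaks and footprints counted when they overlapped the 500 bp to either side of any TSS by at least 1 bp. Percentiles are among genes with a promoter peak in both libraries. Members, lists and motifs were chosen with earlier results of these data known. With 1 group of 2 libraries no test between conditions exists, and differences between gene groups are described only. Overlap and motif code was tested on simulated data. Python 3.11.15, numpy 2.4.6, pandas 2.3.3, scipy 1.17.1 and matplotlib 3.10.9 were used.

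Genes were named by rule: the 5 highest and 5 lowest by mean signal, those without a promoter peak, those with a divergent gene within 100 bp and the widest gap, the 5 with most footprints (ties kept) and those with none, the 3 largest and smallest library ratios, and those shown by sequence. Other genes named were chosen after their values were seen. Alternatives were other windows, the 5′ end only, the longer list, midpoints, the 50% highest peaks, other definitions of divergence, other motif windows and leaving out each library.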

Additional observations from a re-analysis of the deposited data

How the results depend on the processing

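The number of members with a promoter peak in both libraries ranged from 72 (5′ end only) to 78 over the alternatives. It was 77 with windows of 250 bp, where Mrps12 was lost, and 75 with the 50% highest peaks, where Mrps2, Mrps24 and Mrps25 were lost. The median over the members of the mean signal was 3.37, and with each library left out it was 4.31 and 2.43. The number of members with a divergent gene was 17 at 500 bp and 20 with any GENCODE gene. It moved to 29 with any annotated TSS (37.2%, against 11.3% of all genes) and to 33 with overlapping 5′ ends. With 500 bp to either side of the 5′ end, NRF1 matches stood in 27 members (34.6%, against 12.9% of all genes) and ETS matches in 42 (53.8%, against 19.5%). No paired analysis was possible because the labels give 1 group only.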
